A study of Saccharomyces cerevisiae with 15 samples.

Results

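The values described here compare the effects of mutations in the large subunits of yeast RNA polymerase II, gene by gene. The effect of rpb1-1 is the level in rpb1-1 minus the level in its wild type WT1B, and the effect of rpb2-10 is the level in rpb2-10 minus the level in its wild type WT1A. The difference of effects is the first minus the second, so a positive difference means that a gene was higher in rpb1-1, relative to its wild type, than in rpb2-10 relative to its own. All genes of Saccharomyces cerevisiae with a probe set that names 1 gene were taken, whatever their values, which gave 5449 genes of 5449 tested in the series, measured on 12 of its 15 arrays.

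RNA polymerase II makes the messenger RNA of nuclear genes. Its largest subunit, Rpb1, is encoded by RPO21 and carries much of the catalytic cleft and a repetitive tail to which processing factors bind, and the second largest, Rpb2, forms the other side of that cleft. The allele rpb1-1 is known from earlier work as a temperature-sensitive form of Rpb1 and rpb2-10 as a form of Rpb2 that elongates slowly.

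The groups were rpb1-1 (strain WRP1- 12A), WT1B (strain W303-1BR5), rpb2-10 (strain WRP2) and WT1A (strain W303-1AR5), with 3 biological replicates each. The first pair has mating type alpha and the second pair mating type a. All carry RAD5 and the markers ura3-1 and trp1-1, the histidine marker his3-11,15, a leu2 marker allele, and can1-100 with ade2-1, in the W303 background, and each mutant carries its polymerase allele in addition. Cultures in mid-log growth in YPAD, a rich medium with adenine, were harvested, and RNA was hybridized to 1-colour Affymetrix yeast arrays. No growth temperature was given, and each mutation was represented by 1 strain. The values are log2 expression levels, on which a difference of 1 means a 2-fold ratio.

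An array of an alpha strain had a median level of 10.04 to 10.09 over the genes, and one of an a strain 7.75 to 7.83, so the arrays form 2 sets that appear to have been normalized apart. Each effect was taken within its own set. Mutant subunit, mating type and array set all change together between the effects and cannot be told apart. Genes had a median replicate SD of 0.12 in rpb1-1, 0.11 in WT1B, 0.07 in rpb2-10 and 0.07 in WT1A, and the median SE of a difference of effects was 0.13. Errors of effects and of differences below are SE of the linear fit with n = 3 arrays per group, and a gene is called changed at an adjusted p below 0.05. Counts below of positive or negative differences, and of genes that rose or fell, cover called genes only. Normalization removes a change shared by all genes, so higher and lower are relative to the other genes. Each RNA sample averages a whole culture, so more cells with a transcript and more transcript per cell cannot be told apart.

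Most genes responded unequally to the mutations. The difference of effects was called for 3092 genes, which is 56.7% of those tested, with 1695 positive (31.1%) and 1397 negative (25.6%). Median centring of each array moves the median difference over all genes by −0.10 and the counts to 1412 positive and 1689 negative, so small differences have no firm sign. It reached at least 1 on the log2 scale for 880 genes (16.1%), 444 positive (8.15%) and 436 negative (8%), or 349 positive and 519 negative after median and MAD scaling. For 2834 genes (52%) the difference was called and all 9 pairwise differences between rpb1-1 and WT1B arrays lay on one side of the 9 between rpb2-10 and WT1A arrays. These genes are called separated below. Of all genes, 2977 (54.6%) were separated, called or not.

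Single effects were about as common. In rpb1-1 3348 genes changed (61.4%), 31.7% of all genes higher and 29.8% lower, and 11.4% by at least 1 (5.36% higher and 6.07% lower). In rpb2-10 3105 genes changed (57%), 26.2% higher and 30.8% lower, and 6.46% by at least 1 (2.11% higher and 4.35% lower). After median centring 1615 genes were higher and 1775 lower in rpb1-1, and 1660 higher and 1418 lower in rpb2-10. The excess of higher or lower genes among all called genes thus has no firm sign in either mutant. With arrays weighted by group the counts were 3094 in rpb1-1 and 3886 in rpb2-10, and with array weights 3694 and 4046. Which mutant changed more genes by the threshold is thus not firm. Both effects were called for 2008 genes. Of those 2008 genes, 1148 moved the same way and 860 moved in opposite directions. All 860 had a called difference of effects, which nearly follows from opposite called effects with the same SE. Among them 444 were higher in rpb1-1 and lower in rpb2-10, and 416 were lower in rpb1-1 and higher in rpb2-10. In 52 of the 860 both effects had a size of at least 1. Another 978 genes with a called difference changed in rpb1-1 alone by the threshold and 761 in rpb2-10 alone. The remaining called differences were 444 genes that moved the same way by unequal amounts and 49 with neither effect called.

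Across the 5449 genes, which are not independent replicates, the effects had a Pearson r of 0.12 and a Spearman rho of 0.12. The SD of the effects over genes was 0.70 in rpb1-1 and 0.59 in rpb2-10. For 1400 genes the 95% confidence interval of the difference lay within 0.5 of 0 on the log2 scale, so for these a larger difference was outside the interval.

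**Figure D1:**
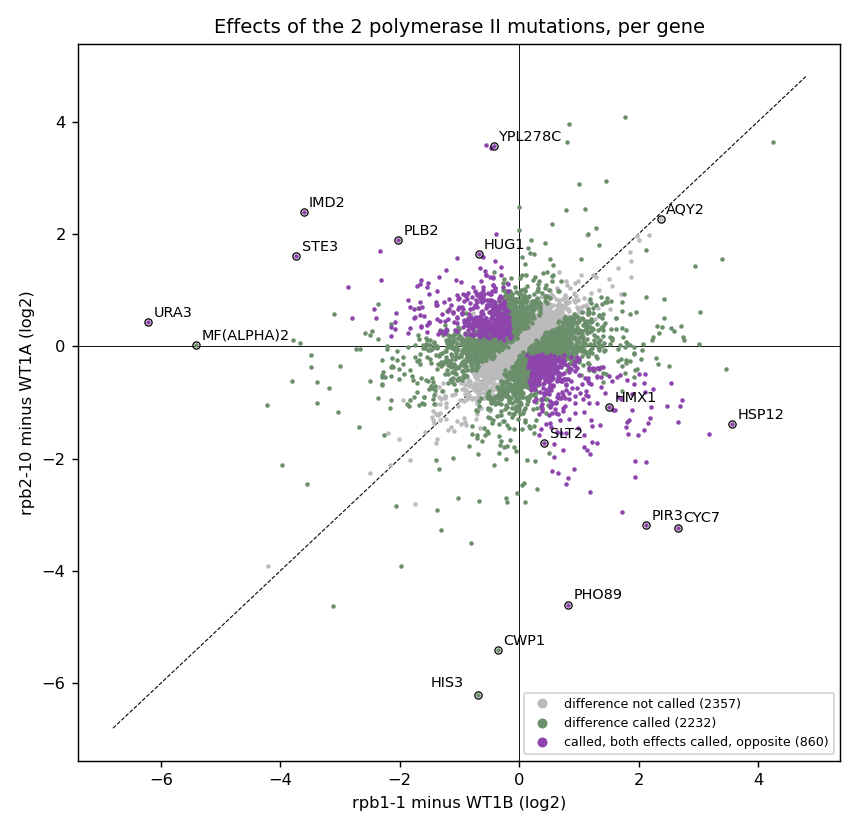
Each point is 1 gene, with its effect in rpb1-1 (rpb1-1 minus WT1B, log2) on the x axis and its effect in rpb2-10 (rpb2-10 minus WT1A, log2) on the y axis, both means of 3 arrays per group. The dashed diagonal marks equal effects, and the 860 genes with opposite called effects fill the upper left and lower right, with IMD2, PLB2 and STE3 on one side and CYC7, PIR3 and HSP12 on the other.

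The strain marker URA3 had the lowest difference of all genes and the marker HIS3 the second highest, and both are described with the other marker and mating genes further on. Outside those lists, CYC7 stood first among the positive differences. CYC7, which encodes the cytochrome c isoform of low oxygen and stress, had levels of 11.04, 11.77 and 11.16 in rpb1-1, against 8.35, 8.46 and 9.18 in WT1B, and of 3.996, 4.43 and 4.99 in rpb2-10, against 7.75, 7.81 and 7.55 in WT1A. Every rpb1-1 array was above WT1B and every rpb2-10 array below WT1A. The effects were 2.66 ± 0.27 and −3.23 ± 0.27, and the difference was 5.89 ± 0.39 (adjusted p = 7.19e-08), the highest of all genes.

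PIR3, a cell wall glycoprotein, had levels of 11.26, 11.49 and 10.82 in rpb1-1, against 8.94, 9.05 and 9.203 in WT1B, and of 4.51, 4.47 and 5.07 in rpb2-10, against 7.82, 7.81 and 7.998 in WT1A. Its groups did not overlap within either pair, and the difference was 5.31 ± 0.28 (adjusted p = 1.03e-08). HSP12, a small heat shock protein that stabilises membranes, had 13.48, 13.98 and 14.11 in rpb1-1, against 9.96, 10.22 and 10.71 in WT1B, and 7.499, 7.59 and 7.16 in rpb2-10, against 8.64, 8.78 and 8.999 in WT1A. It was higher in every rpb1-1 array and lower in every rpb2-10 array than in the wild types. The difference of 4.95 ± 0.31 (adjusted p = 5.42e-08) corresponds to a 30.9-fold ratio between the fold changes.

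Other large differences came mainly from rpb2-10. CWP1, a mannoprotein of the cell wall, had levels of 12.20, 12.27 and 11.96 in rpb1-1, against 12.31, 12.39 and 12.82 in WT1B, and of 4.70, 4.68 and 4.74 in rpb2-10, against 10.05, 9.98 and 10.33 in WT1A. The rpb1-1 arrays lay just below those of WT1B, with an effect of −0.36 ± 0.15 (adjusted p = 0.0481), whereas rpb2-10 was lower by far on every array, at −5.41 ± 0.15. PHO89, a cotransporter of sodium and phosphate, had 12.14, 11.50 and 11.09 in rpb1-1, against 10.62, 11.40 and 10.25 in WT1B, and 4.87, 4.82 and 4.92 in rpb2-10, against 9.42, 9.35 and 9.65 in WT1A. Here the alpha groups overlapped (effect 0.82 ± 0.27) and the a groups did not (effect −4.60 ± 0.27), and the difference was 5.42 ± 0.38.

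The remaining genes among the 15 highest separated genes outside the marker and mating lists were SUE1 (4.74), HXT7 (4.68), YER053C-A (4.27), PUT4 (4.19), XBP1 (4.02), YRO2 (3.98), DDR2 (3.87), ECM13 (3.80), ATG39 (3.77) and NCA3 (3.68). SUE1 acts in the degradation of cytochrome c, HXT7 is a high-affinity glucose transporter, PUT4 a proline permease, XBP1 a stress-induced repressor of transcription and ATG39 a receptor for autophagy of the nucleus. The probes of HXT7 are shared with other sequences, and its 3 WT1B arrays spread between 9.96 and 11.80. All but DDR2 of these 10 genes were called in both mutants and in opposite directions. DDR2, a stress gene, rose in rpb1-1 by 3.46 ± 0.20, and its effect in rpb2-10 was −0.41 ± 0.20 (adjusted p = 0.102).

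At the other end, IMD2 had the lowest difference after the strain marker URA3. It encodes IMP dehydrogenase, which commits purines to guanine nucleotides, and its probes are shared with close relatives. Levels were 6.58, 4.81 and 6.78 in rpb1-1, against 9.85, 9.75 and 9.40 in WT1B, and 10.60, 10.54 and 10.55 in rpb2-10, against 8.22, 8.02 and 8.29 in WT1A. Replicate 2 of rpb1-1 was the lowest, and no array overlapped the other group of its pair. The effects of −3.61 ± 0.36 and 2.39 ± 0.36 gave a difference of −6.00 ± 0.51 (adjusted p = 6.77e-07).

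PLB2, a phospholipase B, moved by nearly equal amounts in opposite directions. Its levels were 8.84, 9.08 and 8.80 in rpb1-1, against 10.98, 10.82 and 10.99 in WT1B, and 10.12, 10.18 and 10.08 in rpb2-10, against 8.15, 8.17 and 8.39 in WT1A. The groups did not overlap in either pair, with effects of −2.02 ± 0.09 and 1.89 ± 0.09 and a difference of −3.91 ± 0.12 (adjusted p = 1.65e-10). NRT1, a transporter of nicotinamide riboside, differed by −3.50 ± 0.12 (effects −2.32 and 1.19). BNA1, an enzyme of NAD synthesis from tryptophan, differed by −3.29 ± 0.14 (effects −2.79 and 0.50).

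For YPL277C, YPL278C and YOR389W, rpb2-10 carried most of the difference. YOR389W had levels of 6.38, 6.44 and 6.65 in rpb1-1, against 6.79, 7.02 and 7.08 in WT1B, and of 8.91, 8.85 and 8.84 in rpb2-10, against 5.37, 5.29 and 5.36 in WT1A. The rpb1-1 arrays were slightly below WT1B and the rpb2-10 arrays far above WT1A. The differences of the 3 genes were −4.14 ± 0.14, −3.98 ± 0.10 and −4.0 ± 0.13 in the order named, and the probes of YPL277C and YPL278C are shared.

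The others among the 15 lowest separated genes outside the marker and mating lists were PRM9 (−4.03), IZH4 (−3.91), DCG1 (−3.89), FRE4 (−3.67), FCY21 (−3.32) and PHO11 (−3.18), with MIP6 and IRC4. PRM9 is a pheromone-regulated membrane protein, FRE4 a ferric reductase, and PHO11, with shared probes, a secreted acid phosphatase. MIP6 and IRC4 were not above background in rpb1-1, so only a bound can be given and their places in this order are not exact. Against the background level, the rpb1-1 to WT1B ratio relative to the rpb2-10 to WT1A ratio was at least 11.0-fold lower for MIP6 and at least 5.99-fold lower for IRC4. PHO11 fell in both mutants, with effects of −4.22 and −1.04.

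**Figure D2:**
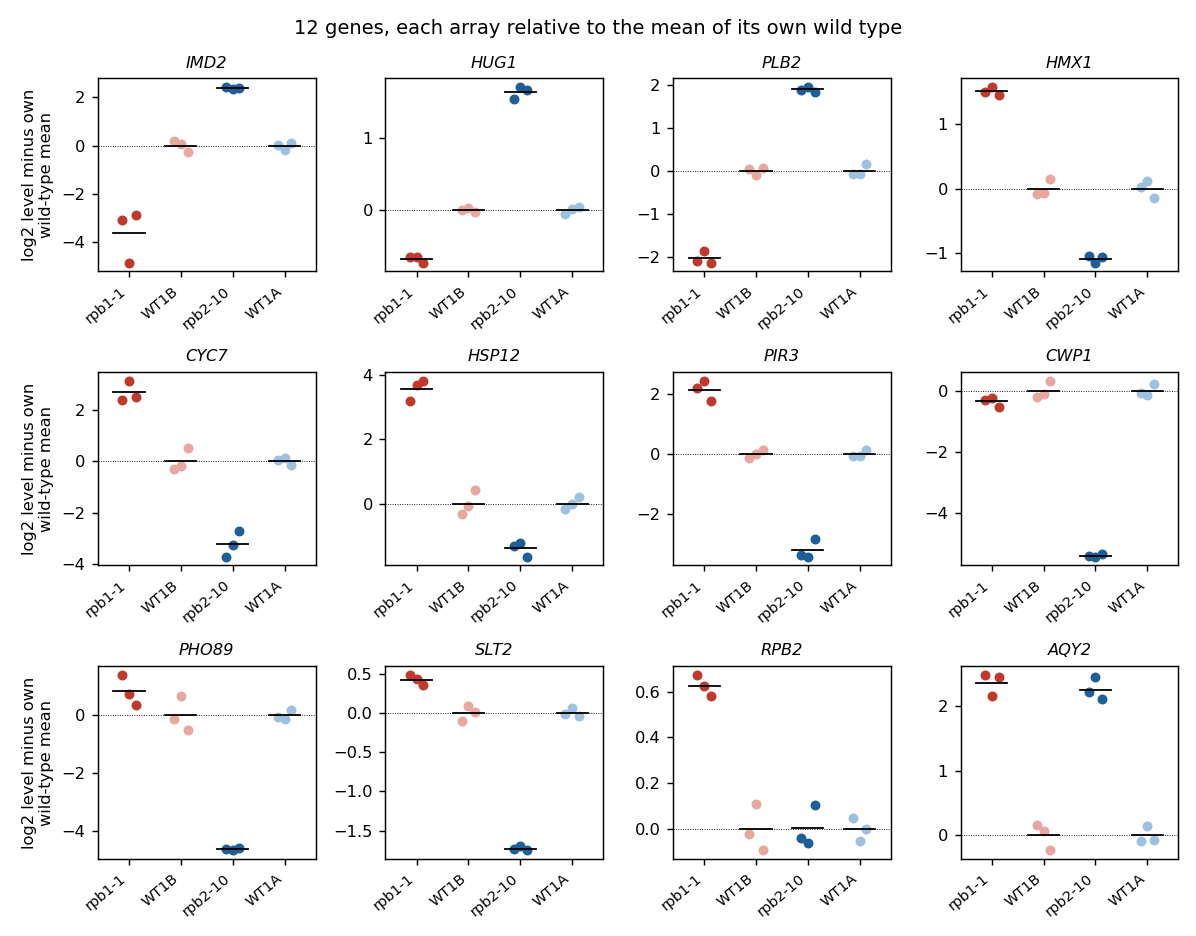
Each panel shows 1 gene, each point 1 array (3 per group) as its log2 level minus the mean of its own wild type, and the bar is the group mean. rpb1-1 and rpb2-10 lie on opposite sides of their wild types for IMD2, HUG1, PLB2, HMX1, CYC7, HSP12 and PIR3, while AQY2 rose in both and RPB2 in rpb1-1.

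The polymerase itself was examined next. RPB2, which carries the mutation of rpb2-10, had levels of 12.03, 11.98 and 11.94 in rpb1-1, against 11.34, 11.47 and 11.27 in WT1B, and of 10.28, 10.26 and 10.42 in rpb2-10, against 10.37, 10.27 and 10.32 in WT1A. It was higher on every rpb1-1 array than in WT1B, while the rpb2-10 and WT1A arrays overlapped, and the difference was 0.62 ± 0.09 (adjusted p = 7.34e-05). RPO21, which carries the mutation of rpb1-1, had 11.68, 11.77 and 11.63 in rpb1-1, against 11.40, 11.29 and 11.20 in WT1B, and 8.005, 7.99 and 8.20 in rpb2-10, against 7.93, 7.95 and 7.86 in WT1A. It rose in rpb1-1 by 0.40 ± 0.07, its effect in rpb2-10 was 0.15 ± 0.07, and the difference of 0.25 ± 0.10 missed the threshold (adjusted p = 0.0577), with a 95% interval from 0.02 to 0.47. The array detects these transcripts whether mutated or not, so their levels do not check the labels.

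Of the 12 measured polymerase II subunit genes, 1 difference was positive (RPB2) and 1 negative, a share of 16.7% beside 56.7% of all genes. The negative one was RPB8, a subunit shared by all 3 nuclear polymerases, at −0.22 ± 0.08 (adjusted p = 0.0281). It missed the threshold under 7 of 25 alternatives, among them a replicate block within each array set and the fits without WT1A replicate 1, WT1B replicate 1 or 2, rpb1-1 replicate 2 or rpb2-10 replicate 2, with adjusted p between 0.0041 and 0.087 over all 25. With array weights 5 subunit differences were positive. Among 19 subunit genes of polymerases I and III, 1 difference was positive and 2 were negative (15.8% called). RPC17, a polymerase III subunit, differed by −1.58 ± 0.18, with effects of −1.33 ± 0.13 and 0.26 ± 0.13.

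Genes that load, control and release polymerase II were taken by step. Of 40 genes for Mediator and the general transcription factors, 19 differences were positive and 2 negative (52.5%), with a median of 0.26 beside 0.06 for all genes, or 0.12 after median and MAD scaling. Without WT1B replicate 3, 4 were negative. SSL2, the helicase of TFIIH that opens promoters, had levels of 10.53, 10.71 and 10.78 in rpb1-1, against 9.62, 9.72 and 9.35 in WT1B, and of 7.39, 7.35 and 7.52 in rpb2-10, against 8.04, 7.997 and 7.90 in WT1A. It rose on every rpb1-1 array and fell on every rpb2-10 array, a difference of 1.67 ± 0.13 (adjusted p = 3.57e-07). The Mediator tail subunits PGD1 and GAL11 differed by 1.21 ± 0.10 and 0.80 ± 0.10.

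Of 31 elongation factor genes, 10 differences were positive and 2 negative, with a median of 0.10. The called share of 38.7% was below the 56.7% of all genes, and the positive share was near their 31.1%. The sign of this median turned after median centring (−0.0016). SPN1, which works with the histone chaperone Spt6, and POB3, a subunit of the chaperone FACT, differed by 0.86 ± 0.09 and 0.73 ± 0.08. YRA1, an mRNA export factor, went the other way, at 11.15, 11.27 and 11.48 in rpb1-1, against 12.62, 12.64 and 12.67 in WT1B, and 10.45, 10.43 and 10.49 in rpb2-10, against 10.68, 10.61 and 10.58 in WT1A. It was lower on all rpb1-1 arrays, and its difference was −1.17 ± 0.11. Of 24 termination and 3′ processing genes, 14 differences were positive and 1 negative (62.5% called, beside 56.7% of all genes). The median was 0.37, and HRP1 (1.03 ± 0.14), a cleavage factor, YTH1 (0.71 ± 0.09) and CLP1 (0.53 ± 0.08) were among the positive ones. mRNA decay and exosome genes were positive in 22 of 48 cases and negative in 4, a called share of 54.2%. POP2, a deadenylase subunit, differed by 0.75 ± 0.09, SKI2 by 0.71 ± 0.09 and LSM5, of the decapping complex, by −1.41 ± 0.10.

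Most respiration genes rose in rpb1-1. Of 48 genes for the respiratory chain, ATP synthase and TCA cycle, 41 differences were called positive and none called negative. Of the positive ones 26 had a size of at least 1, and the median difference of the list was 1.03. In rpb1-1 45 rose and none fell, whereas in rpb2-10 12 rose and 13 fell, and 13 genes had opposite called effects. On single arrays the median of the list, relative to the wild type, was 0.90, 1.097 and 0.93 in rpb1-1, against −0.10, −0.07 and 0.15 in WT1B, and −0.09, −0.03 and −0.06 in rpb2-10, against −0.02, −0.02 and 0.04 in WT1A. The rpb1-1 arrays stood far above WT1B. The rpb2-10 arrays lay slightly below WT1A, near the medians of all genes on the same arrays (−0.05, −0.05 and −0.04). COX5A, a subunit of cytochrome c oxidase, had 13.47, 13.66 and 13.46 in rpb1-1, against 12.47, 12.45 and 12.66 in WT1B, and 10.18, 10.17 and 10.18 in rpb2-10, against 10.68, 10.75 and 10.63 in WT1A. It rose on all rpb1-1 arrays and fell on all rpb2-10 arrays, a difference of 1.51 ± 0.10 (adjusted p = 6.84e-08), and QCR7, of the cytochrome bc1 complex, followed at 1.29 ± 0.10.

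Mitochondrial ribosomal protein genes gave a like count from the other mutant. Of 55 genes, 36 differences were positive and 3 negative, with a median of 0.50. In rpb2-10 41 fell and 2 rose, while in rpb1-1 20 rose and 10 fell, and 16 genes rose in rpb1-1 and fell in rpb2-10. MRPL3 had levels of 11.42, 11.36 and 11.33 in rpb1-1, against 10.99, 11.03 and 10.96 in WT1B, and of 7.95, 8.21 and 8.28 in rpb2-10, against 9.10, 9.05 and 9.12 in WT1A. No arrays overlapped within a pair, and the larger shift was that of rpb2-10, giving a difference of 1.32 ± 0.10. MRPL16 differed by 1.17 ± 0.08 and MRPS9 by 0.75 ± 0.08.

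Glycolysis and fermentation genes had 12 called negative differences of 23 and no called positive one (52.2%, near the 56.7% of all genes). The median was −0.27, or −0.17 after median and MAD scaling. Without WT1B replicate 3, 2 differences were called positive. PFK1 and PFK2, the subunits of phosphofructokinase, differed by −0.74 ± 0.10 and −0.63 ± 0.08, and ADH5, an alcohol dehydrogenase, by −2.76 ± 0.11. Genes repressed by glucose or used on other carbon sources were positive in 22 of 43 cases and negative in 9. GUT2 of glycerol use (2.58 ± 0.20), ADH2 of ethanol use (2.32 ± 0.18) and MDH2 of gluconeogenesis (2.05 ± 0.18) each rose in rpb1-1 and had effects between −0.12 and 0.27 in rpb2-10. Among 20 hexose transporter and sensor genes 6 differences were positive and 8 negative. HXT5, a transporter of slow-growing cells, differed by 3.58 ± 0.22 (effects 1.99 and −1.59), MTH1, a glucose signalling regulator, by 1.86 ± 0.15 and HXT9 by −1.39 ± 0.14.

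Most general stress genes rose in rpb1-1. Of 50 genes, 32 differences were positive and 3 negative, with a median of 1.22. In rpb1-1 43 rose and 2 fell, and in rpb2-10 13 rose and 10 fell. The list median was 1.09, 1.79 and 1.20 on the rpb1-1 arrays, against −0.20, −0.01 and 0.24 in WT1B, and 0.06, −0.09 and 0.03 in rpb2-10, against −0.03, 0.02 and 0.01 in WT1A. Replicate 2 of rpb1-1 was highest, and without it the median difference was 0.90. The negative count was 1 without WT1A replicate 1 or 3, WT1B replicate 2, rpb1-1 replicate 3 or rpb2-10 replicate 3. XBP1, the repressor named above, had levels of 8.27, 9.03 and 8.83 in rpb1-1, against 6.07, 6.09 and 5.995 in WT1B, and of 2.90, 2.39 and 2.82 in rpb2-10, against 4.08, 4.08 and 4.01 in WT1A, with no overlap in either pair.

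Trehalose and glycogen genes, which make and use storage carbohydrates, had 12 positive and 2 negative differences of 21, with a median of 0.88. The called share was 66.7%, beside 56.7% of all genes. The list median was 0.71, 1.52 and 0.75 on the rpb1-1 arrays, against −0.22, −0.04 and 0.27 in WT1B, and −0.10, −0.19 and −0.03 in rpb2-10, against −0.01, 0.03 and 0.00 in WT1A, so replicate 2 of rpb1-1 again stood high. Without that array the median difference was 0.58. GLC3, the glycogen branching enzyme, differed by 2.51 ± 0.34 and NTH1, a trehalase, by 2.19 ± 0.25, while PGM1, a phosphoglucomutase, differed by −1.17 ± 0.12.

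Most proteasome genes rose in both mutants. Of 34 proteasome genes, 33 rose in rpb1-1 and 31 in rpb2-10, and 29 differences were positive and 1 negative, with a median of 0.51. The list median was 0.88, 0.91 and 0.93 on the rpb1-1 arrays, against −0.05, −0.01 and 0.06 in WT1B, and 0.39, 0.36 and 0.41 on the rpb2-10 arrays, against 0.02, −0.01 and 0.01 in WT1A. The mutants were thus above their wild types on every array. RPT4, an ATPase of the regulatory particle, had 13.24, 13.14 and 13.20 in rpb1-1, against 12.03, 12.14 and 12.19 in WT1B, and 9.80, 9.73 and 9.84 in rpb2-10, against 9.65, 9.59 and 9.65 in WT1A. The difference was 0.91 ± 0.08, and the core subunits PRE8 and PRE10 followed at 0.77 ± 0.08 and 0.74 ± 0.07.

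Among 33 genes for heat shock proteins and chaperones, 27 rose in rpb1-1 and 19 in rpb2-10. Their differences were positive in 13 cases and negative in 2, a share of 45.5% beside 56.7% of all genes. SSA3, an inducible Hsp70, differed by 1.93 ± 0.19 and HSF1, the heat shock transcription factor, by 0.90 ± 0.12. Among 33 oxidative defence genes 19 differences were positive and 4 negative. YAP1, the regulator of that response, had 10.48, 10.48 and 10.43 in rpb1-1, against 8.82, 9.16 and 9.19 in WT1B, and 7.32, 7.17 and 7.36 in rpb2-10, against 7.77, 7.57 and 7.63 in WT1A. It rose in rpb1-1 and fell in rpb2-10 with no overlap, a difference of 1.78 ± 0.13, and GTT2, a glutathione transferase, did likewise at 1.82 ± 0.17, while the thioredoxin TRX1 differed by −0.64 ± 0.08. Of 29 autophagy genes 14 differences were positive and 5 negative (65.5% called). ATG8 led at 2.97 ± 0.22, and it rose in rpb1-1 by 3.01 ± 0.16 and had an effect of 0.04 ± 0.16 in rpb2-10.

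**Figure D3:**
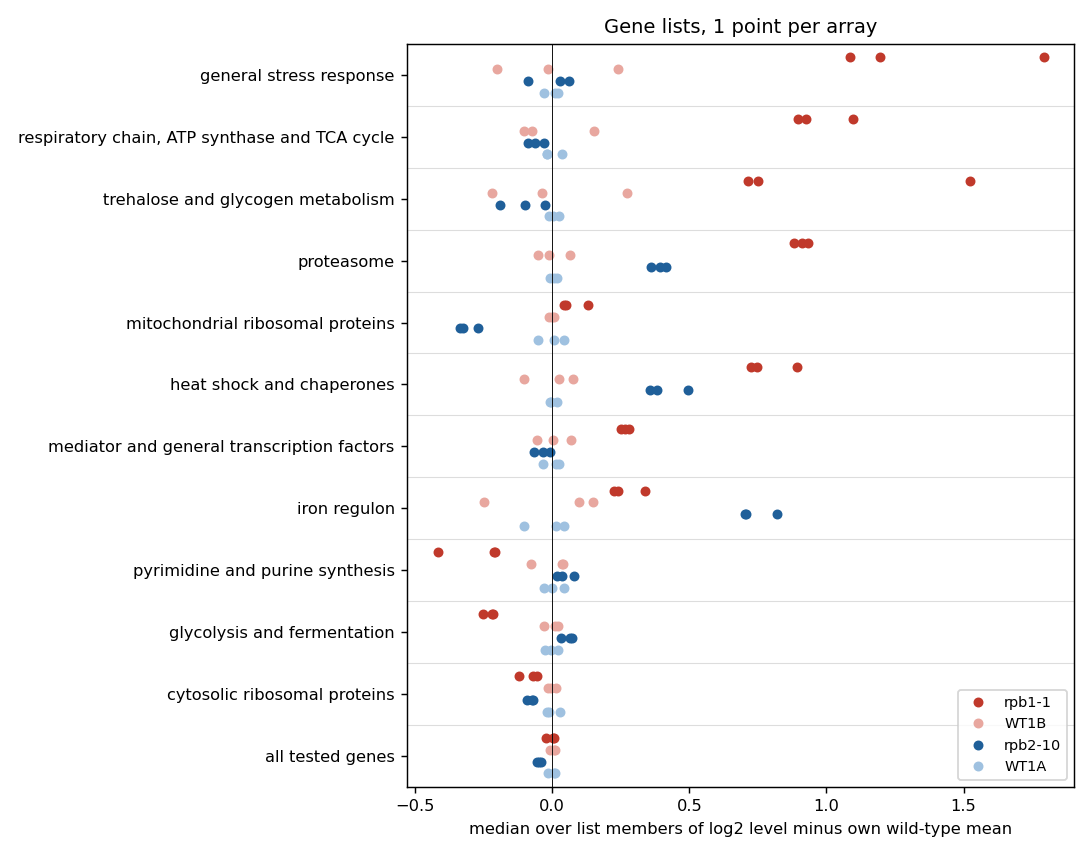
Each point is 1 array (3 per group), placed at the median over the members of a gene list of the log2 level minus the mean of its own wild type. The rpb1-1 arrays stand far above WT1B for respiration and general stress, and both mutants stand above their wild types for the proteasome. rpb2-10 stands highest for the iron regulon and lowest for mitochondrial ribosomal proteins.

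Iron regulon genes had more negative than positive differences. The iron regulon consists of genes that Aft1 and Aft2 turn on when iron is short. Of its 34 measured genes, 20 differences were negative and 8 positive, 21 of the 34 with a size of at least 1, and the median was −0.89. In rpb2-10 21 rose and 7 fell, and in rpb1-1 15 rose and 8 fell. The list median was 0.24, 0.23 and 0.34 on the rpb1-1 arrays, against −0.25, 0.15 and 0.10 in WT1B, and 0.82, 0.71 and 0.70 in rpb2-10, against 0.02, 0.04 and −0.10 in WT1A.

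The most clearly separated iron genes did not share a direction. HMX1, a heme oxygenase that recovers iron from heme, had 11.21, 11.29 and 11.17 in rpb1-1, against 9.64, 9.65 and 9.87 in WT1B, and 7.85, 7.75 and 7.84 in rpb2-10, against 8.92, 9.02 and 8.76 in WT1A. Thus it rose in rpb1-1 and fell in rpb2-10, a difference of 2.59 ± 0.13 (adjusted p = 5.58e-09), and ISU1, the scaffold of iron-sulphur cluster assembly, did so too at 1.85 ± 0.13. ATX1, a copper chaperone that supplies the iron uptake oxidase, had 11.43, 11.43 and 11.52 in rpb1-1, against 12.97, 13.07 and 13.26 in WT1B, and 9.78, 10.09 and 9.68 in rpb2-10, against 8.70, 8.61 and 8.72 in WT1A. It moved the opposite way, at −2.82 ± 0.14. Chosen after their values were seen, the siderophore transporter ARN1 and the cell wall mannoprotein FIT2 rose in both mutants and further in rpb2-10, with effects of 0.79 and 3.64 for ARN1 and of 1.77 and 4.07 for FIT2. Of 15 copper genes 5 differences were positive and 7 negative (80% called, beside 56.7% of all genes). PCA1 differed by 1.05 ± 0.14 and CTR2, a vacuolar copper transporter, by −0.69 ± 0.10.

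Phosphate genes had 15 positive and 8 negative differences of 27. The negative count was 5 without WT1A replicate 1 or rpb1-1 replicate 3 and 4 without rpb2-10 replicate 2. Besides PHO89 and PHO11, PHO2, a transcription factor of the phosphate response, differed by 1.23 ± 0.11. Of 31 genes of nitrogen catabolite repression and allantoin use, 17 fell in rpb1-1 and 24 in rpb2-10, and 16 differences were positive and 7 negative. DUR3, a urea transporter, rose in rpb1-1 and fell in rpb2-10, a difference of 2.89 ± 0.16, and UGA4, a GABA permease, differed by −1.76 ± 0.13. Amino acid synthesis genes were positive in 20 of 63 cases and negative in 12, with ARG2 at 0.90 ± 0.11, SER1 at −0.87 ± 0.08 and LYS9 at −1.41 ± 0.13. In the sulphur and methionine list 11 of 32 differences were positive and 8 negative. SAM2, MET22 and SAM3 differed by −0.88 ± 0.09, −0.90 ± 0.11 and −1.33 ± 0.18. The called shares of the amino acid and sulphur lists were 50.8% and 59.4%, near the 56.7% of all genes.

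Nucleotide synthesis genes had more negative than positive differences. Of 33 purine and pyrimidine genes, 16 differences were negative and 4 positive (60.6% called, near the 56.7% of all genes). Of all genes 25.6% had negative and 31.1% positive differences. The list had a median of −0.34. In rpb1-1 19 fell and 3 rose, and in rpb2-10 9 fell and 12 rose. The positive count was 2 without WT1A replicate 1, WT1B replicate 3, rpb1-1 replicate 1 or rpb2-10 replicate 1. FUR1, which salvages uracil, had 12.40, 12.21 and 12.40 in rpb1-1, against 13.49, 13.34 and 13.27 in WT1B, and 11.79, 11.80 and 11.83 in rpb2-10, against 11.34, 11.26 and 11.25 in WT1A. It fell in rpb1-1 and rose in rpb2-10 on all arrays, a difference of −1.56 ± 0.12, and IMD4, a relative of IMD2, fell in rpb1-1 only by the threshold and differed by −1.20 ± 0.10. The strain marker URA3 is a member of this list.

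Genes of the DNA damage response and replication moved in both directions. HUG1, a small inhibitor of ribonucleotide reductase that is induced by DNA damage, had levels of 7.34, 7.34 and 7.26 in rpb1-1, against 7.99, 8.02 and 7.96 in WT1B, and of 7.03, 7.20 and 7.17 in rpb2-10, against 5.44, 5.51 and 5.54 in WT1A. It was lower on every rpb1-1 array and higher on every rpb2-10 array, with effects of −0.68 ± 0.06 and 1.64 ± 0.06 and a difference of −2.31 ± 0.08 (adjusted p = 2.88e-10). Of its list of 20 genes, 7 differences were positive and 5 negative, a called share of 60% near the 56.7% of all genes. RNR3, the damage-inducible large subunit of the reductase, was looked up after its values were seen and had effects of −0.51 and 0.62 and a called difference of −1.13. RAD54, of recombination, differed by 0.91 ± 0.10 and DDI3, with shared probes, by 2.86 ± 0.17.

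Repair and recombination genes were positive in 20 of 48 cases and negative in 9 (60.4% called, near the 56.7% of all genes). YKU80, of the end-joining Ku complex, had 6.32, 6.39 and 6.51 in rpb1-1, against 8.24, 8.19 and 8.03 in WT1B, and 6.40, 6.46 and 6.40 in rpb2-10, against 5.89, 5.89 and 5.92 in WT1A. It fell in rpb1-1 and rose in rpb2-10 without overlap, a difference of −2.27 ± 0.10. RAD7, which recognises lesions in nucleotide excision repair, differed by 1.29 ± 0.11 through a fall in rpb2-10, and REV7, of the translesion polymerase zeta, by −1.83 ± 0.16 through a larger fall in rpb1-1. Of 57 replication genes, 28 differences were positive and 5 negative (57.9% called, near the 56.7% of all genes). The median was 0.25, or 0.15 with 18 positive and 8 negative after median centring. In rpb1-1 30 rose and 11 fell, and in rpb2-10 5 rose and 18 fell. MCM5, of the replicative helicase, differed by 1.21 ± 0.13, PSF1, of the GINS complex, by 0.96 ± 0.10 and DNA2, a nuclease and helicase, by 0.75 ± 0.10.

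Cell wall genes differed in both directions. Of 45 cell wall protein genes, 14 differences were positive and 18 negative (71.1% called, beside 56.7% of all genes). PIR1 differed by 2.15 ± 0.09, beside PIR3 and CWP1. In the list of cell wall integrity signalling and glucan synthesis, 12 of 27 differences were positive and 4 negative. The called share was 59.3%, near the 56.7% of all genes. SLT2, the MAP kinase of the pathway, had 11.85, 11.79 and 11.73 in rpb1-1, against 11.27, 11.46 and 11.39 in WT1B, and 8.03, 8.08 and 8.02 in rpb2-10, against 9.75, 9.83 and 9.73 in WT1A. The rise in rpb1-1 was 0.42 ± 0.07 and the effect in rpb2-10 was −1.73 ± 0.07, a difference of 2.15 ± 0.10 (adjusted p = 3.55e-09). RLM1, the transcription factor that Slt2 activates, differed by 1.08 ± 0.09 and PTP2, a phosphatase that acts on MAP kinases, by 1.61 ± 0.11.

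Sterol and low-oxygen genes had more negative than positive differences. Of 31 ergosterol genes 15 differences were negative and 7 positive (71.0% called, beside 56.7% of all genes). NCP1, the reductase that serves Erg11, was at −1.12 ± 0.09, ERG26 at −1.28 ± 0.11 and ARE1, which esterifies sterols, at −1.16 ± 0.12. Those 3 genes fell in rpb1-1 and rose in rpb2-10. Of 30 hypoxic genes 13 differences were negative and 6 positive (63.3% called, beside 56.7% of all genes). Their median was −0.26, or −0.16 without rpb1-1 replicate 2, although most of the genes fell in each mutant (20 in rpb1-1 and 16 in rpb2-10). AAC3, an ADP/ATP carrier, differed by −3.10 ± 0.17 and TIR2, a cell wall mannoprotein, by −2.38 ± 0.15, the first through rpb1-1 and the second through a rise of 2.00 ± 0.11 in rpb2-10.

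Ribosome genes had few called differences. Of 128 cytosolic ribosomal protein genes, 3 differences were positive and 10 negative, a share of 10.2% beside 56.7% of all genes, and the median difference was −0.01, whose sign turned under 8 of 25 alternatives. The probes of 26 of them are shared. In rpb1-1 36 fell and 2 rose, and in rpb2-10 18 fell and 1 rose. RPS14B differed by 0.91 ± 0.10, RPL43B by −0.47 ± 0.08 and RPS17B by −0.57 ± 0.10. Over the processing alternatives the number positive ran between 1 and 30 and the number negative between 7 and 23.

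Of 72 ribosome biogenesis genes, 10 differences were called positive and none called negative (13.9%), and 12 genes fell by the threshold in rpb1-1 and 35 in rpb2-10. The median difference was 0.19, or 0.05 without WT1B replicate 3, 0.10 without rpb1-1 replicate 3, 0.13 without rpb1-1 replicate 1 and 0.36 without rpb1-1 replicate 2. The list spread widely within the alpha groups, at −0.04, −0.53 and −0.02 in rpb1-1, against 0.19, 0.08 and −0.27 in WT1B, and −0.44, −0.38 and −0.41 in rpb2-10, against 0.08, −0.04 and −0.04 in WT1A. The rpb2-10 arrays were low together, whereas replicate 2 of rpb1-1 and replicate 3 of WT1B were low within their groups. Without these 2 arrays, an alternative chosen after seeing the data, 15 differences were positive and none negative. With all arrays but 1, the count of 10 became 17 without replicate 2 of rpb1-1, and 5 or 6 without replicate 1 or 3 of rpb1-1, replicate 3 of WT1B, or any one array of rpb2-10 or WT1A. With array weights 28 were positive and 2 negative. RRP3, an RNA helicase, differed by 0.79 ± 0.14, and the processome genes UTP15 and UTP18 by 0.62 ± 0.16 and 0.82 ± 0.23.

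Chromatin, cell cycle and developmental lists were mixed. Of 10 histone genes 4 differences were positive and 3 negative, and the negative ones were HTZ1 (−0.43), HTB2 (−0.50) and HHO1 (−0.71). The positive count was 2 without WT1A replicate 1 or WT1B replicate 1, 1 without WT1A replicate 3, WT1B replicate 2, rpb1-1 replicate 3 or rpb2-10 replicate 2 or 3, 0 after median centring and 6 with array weights. Cyclin and cell cycle genes were positive in 7 of 29 cases and negative in 3 (34.5% called, below the 56.7% of all genes). The cyclins PCL1 and PCL5 were at 1.77 ± 0.17 and 1.29 ± 0.14 and the inhibitor SIC1 at 0.82 ± 0.09. Of 21 silencing genes 9 were positive and 4 negative, with SIR3 at 0.52 ± 0.07, SAS4 at 0.56 ± 0.08 and the deacetylase HST3 at −1.01 ± 0.10. The negative count was 2 without WT1A replicate 2 or 3, rpb1-1 replicate 1 or rpb2-10 replicate 1 or 3, and 7 after median centring. Of 50 meiosis and sporulation genes 11 were positive and 19 negative. The called shares of the silencing and meiosis lists were 61.9% and 60%, beside 56.7% of all genes. RIM4, an RNA-binding regulator of meiosis, differed by 3.52 ± 0.23 and SPO1 by −2.48 ± 0.09, and SPO11, which cuts meiotic DNA, was not above background in rpb1-1, which gives a ratio of ratios at least 3.09-fold lower.

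Because the pairs differ in mating type, genes of mating were set apart. By the measured values all 5 alpha-specific genes had negative differences, but the sign is not settled for MF(ALPHA)1, which has a group not above background. STE3, the receptor for a-factor, had 8.41, 8.01 and 8.40 in rpb1-1, against 11.88, 12.07 and 12.06 in WT1B, and 5.72, 5.57 and 5.41 in rpb2-10, against 3.95, 3.97 and 3.97 in WT1A, a difference of −5.34 ± 0.19. MF(ALPHA)2 differed by −5.43 ± 0.34, SAG1 by −2.68 ± 0.19 and AFB1 by −1.62 ± 0.13. For MF(ALPHA)1 rpb2-10 was not above background, which gives a ratio of ratios at most 2.38-fold lower. An a strain has low levels of these genes to begin with, so the pairs do not measure the same range.

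STE2, the receptor for alpha-factor and an a-cell gene, had 6.25, 6.63 and 6.45 in rpb1-1, against 6.77, 7.06 and 6.85 in WT1B, and 11.21, 11.37 and 11.14 in rpb2-10, against 10.68, 10.68 and 10.69 in WT1A. Relative to the array medians, STE2 was low in rpb1-1 and WT1B and high in rpb2-10 and WT1A. This places the groups by the mating types that the labels give. STE3 was above the array median in WT1B alone, so it sets the wild types apart but not the mutants. Of 7 a-specific genes, 2 differences were positive (MFA1 0.79 and MFA2 0.71, a-factor genes) and 4 negative (BAR1 −1.60, STE2 −1.003, ASG7 −0.78 and STE6 −0.47), and AGA2 was at 0.55 ± 0.25 (adjusted p = 0.0744). STE6 missed the threshold after quantile normalization over all arrays (−0.22, with adjusted p between 0.00043 and 0.0954 over 24 alternatives), and AGA2 passed it under 6 of 24, up to 0.79 (adjusted p between 0.0105 and 0.175), among them the fit without rpb1-1 replicate 1 and both replicate blocks. At the silent and expressed mating loci, HMRA2, with shared probes, differed by 0.51. HMRA1 was not above background in rpb1-1 and WT1B, and no difference is given for it. HMLALPHA1, with shared probes, was not above background in WT1A, which gives a ratio of ratios at least 1.15-fold lower. Pheromone response genes used by both mating types were positive in 14 of 37 cases and negative in 12 (70.3% called, beside 56.7% of all genes). STE11 and STE50, of the MAP kinase cascade, differed by 1.02 ± 0.11 and 0.92 ± 0.10. FIG1, not above background in rpb1-1, was at least 2.53-fold lower in the ratio of ratios.

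Strain markers were among the extremes of the whole table. URA3 had 5.35, 4.95 and 5.78 in rpb1-1, against 11.72, 11.56 and 11.43 in WT1B, and 9.64, 9.73 and 9.66 in rpb2-10, against 9.22, 9.25 and 9.27 in WT1A, a difference of −6.64 ± 0.22. HIS3 had 8.89, 8.69 and 8.76 in rpb1-1, against 9.48, 9.40 and 9.53 in WT1B, and 1.84, 2.62 and 1.91 in rpb2-10, against 8.32, 8.61 and 8.03 in WT1A, a difference of 5.51 ± 0.25. One mutant thus lacks most of the URA3 signal and the other most of the HIS3 signal, with the rpb2-10 values close to the 95th percentile of probe sets of other species there (1.86). The labels give ura3-1 and his3-11,15 for all 4 strains. ADE2 differed by 1.25 ± 0.17 and CAN1 by 0.87 ± 0.18, LEU2 had a difference of −0.36 ± 0.17 (adjusted p = 0.0803) with effects of −2.02 and −1.65, and RAD5 was at −0.02 ± 0.09. LEU2 passed the threshold under 3 of 25 alternatives, among them the fit without WT1B replicate 2 (adjusted p between 0.0322 and 0.226 over all 25).

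Some genes rose or fell in both mutants with a 95% interval of the difference within 0.5 of 0. AQY2, an aquaporin, had 12.31, 11.98 and 12.28 in rpb1-1, against 9.98, 9.89 and 9.59 in WT1B, and 10.77, 11.00 and 10.67 in rpb2-10, against 8.46, 8.70 and 8.48 in WT1A. It rose by 2.37 and 2.26, and the 95% interval of the difference ran from −0.27 to 0.48. YML131W rose by 1.97 and 1.96 (interval −0.33 to 0.34), COQ4, of ubiquinone synthesis, by 0.91 and 0.95 (−0.41 to 0.33), CUE5, an autophagy receptor for ubiquitinated proteins, by 0.95 and 0.89 (−0.19 to 0.32) and UBA1, the ubiquitin-activating enzyme, by 1.09 and 0.85 (0.00 to 0.46). The difference of UBA1 was called under 3 of 25 alternatives, with array weights, after quantile normalization over all arrays (0.35) and without WT1A replicate 2 (0.29). The amino acid permease AGP1 fell in both mutants, with effects of −1.22 and −1.30 (interval −0.28 to 0.44). NIT1 (−0.42 to 0.16), ICY1 (−0.43 to 0.14), YHL048C-A (−0.34 to 0.22) and GEX1, with shared probes (−0.41 to 0.10), likewise fell in both. The differences of YHL048C-A and GEX1 were called after median and MAD scaling (−0.34 and −0.37) and that of ICY1 with array weights (−0.24) and without WT1B replicate 3 and rpb1-1 replicate 2 together (−0.33).

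Among genes with opposite effects, those with the largest smaller effect were taken. Beyond CYC7, PIR3, HXT7, PUT4, YRO2, YER053C-A and HXT5, ICS2 was higher in rpb1-1 (1.82) and lower in rpb2-10 (−1.57). In the other direction, besides IMD2, PLB2, PRM9, STE3, NRT1 and ATX1, the mitochondrial dicarboxylate carrier DIC1 had effects of −1.34 and 1.23. YFL012W was not above background in rpb1-1. Its effect in rpb2-10 was 1.36, and its ratio of ratios was at least 4.85-fold lower.

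Gene length went with the difference. With the genes in 4 bins of like size by coding length, the median difference was −0.10 in the shortest bin (51 to 756 bases), 0.01 and 0.13 in the middle bins and 0.19 in the longest (1902 to 14733 bases). The medians of the rpb1-1 effect were −0.05, −0.02, −0.00 and 0.05 from short to long, and those of rpb2-10 were 0.01, −0.01, −0.09 and −0.10. Among genes of the longest bin 508 differences were positive and 234 negative, and among the shortest 325 and 440.

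On single arrays the median of the longest bin minus that of the shortest was 0.12, 0.11 and 0.07 in rpb1-1, against −0.03, 0.06 and −0.03 in WT1B, and −0.14, −0.16 and −0.04 in rpb2-10, against 0.05, −0.01 and −0.04 in WT1A. The rpb1-1 arrays all lay above WT1B, while replicate 3 of rpb2-10 lay within the range of WT1A. Within 4 bins of expression level, from dimmest to brightest, long genes had median differences of 0.25, 0.26, 0.18 and 0.02 and short genes of −0.12, −0.13, −0.10 and −0.03, so the contrast was smallest among the brightest genes. By chromosome the median difference ran between −0.08 on chromosome III and 0.18 on chromosomes XI and XVI.

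**Figure D4:**
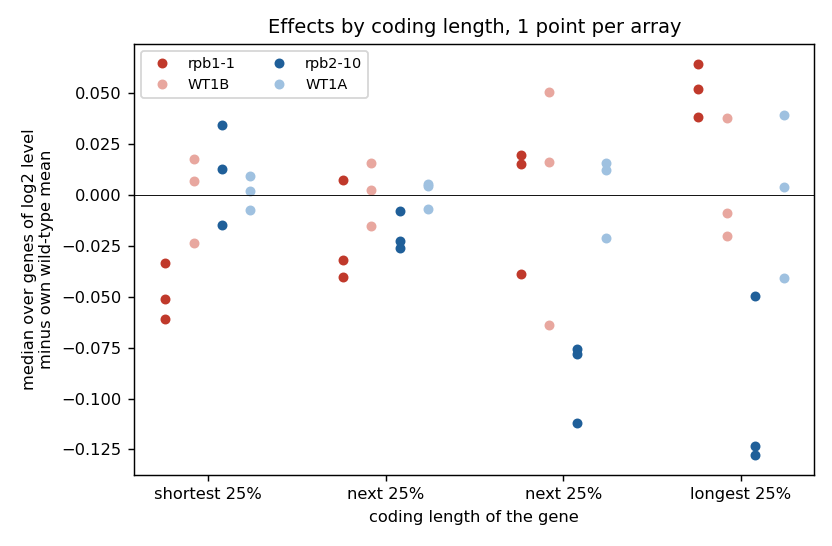
Each point is 1 array (3 per group), placed at the median over genes of a coding-length bin of the log2 level minus the mean of its own wild type. From short to long genes the rpb1-1 arrays move from below to above 0, and the rpb2-10 arrays move below 0, with 1 rpb2-10 array near WT1A in the longest bin.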

How the data were processed

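Gene expression of 5 yeast strains was measured on 15 Affymetrix arrays, and the 12 of rpb1-1, WT1B, rpb2-10 and WT1A are compared here. The deposited values are log2 levels per probe set, and the submitters' processing notes name RMA and limma without versions; how probe sets were filtered or annotated is not given in the sources used here. RMA corrects background, quantile-normalizes and summarises probes. Of 10928 probe sets, 5498 named 1 S. cerevisiae gene. The brightest served for 47 genes with several, and 115 genes have shared probes. Probe sets of another species (1746) gave the background, above whose 95th percentile 97.7% to 98.9% of the genes lay.

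limma 3.58.1 under R 4.3.3 (lmFit, eBayes) gave each of the 5 groups a mean in a single fit over 15 arrays, with 10 residual and 2.98 prior degrees of freedom and a two-sided test. P-values were adjusted by Benjamini-Hochberg over 5449 genes, and the fit was tested on simulated data. One variance per gene covers all groups, so SE are on the small side for the rpb1-1 effect and on the large side for rpb2-10. Replicates correlated at 0.987 to 0.998, and the number of arrays limits the precision. Deviations of same-numbered arrays correlated at −0.31 to 0.32, and the arrays were not paired. The members and the 42 gene lists were chosen with earlier results of these data known. Named are the polymerase genes RPO21 and RPB2, the marker and mating lists, the 15 highest and 15 lowest separated genes outside those lists, up to 3 members per list by p, and 8 opposite and 5 alike genes per direction. For a group not above background, bounds replace its level with the background percentile named above, taken from probe sets of another species. Scaling, filters, weights, blocks and left-out arrays were tried as alternatives. Promoter sequences were not used here.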

Additional observations from a re-analysis of the deposited data

Results flagged for a closer look

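The difference between the effects of rpb1-1 and rpb2-10 was tested in the fit itself. By the separate tests of the effects, 860 genes changed in both mutants and in opposite directions. Of these, 444 were higher and 416 lower in rpb1-1. The test of the difference called all 860. Both effects of a gene have the same SE, so this call nearly follows from opposite called effects and adds no separate support. IMD2 had a difference of −6.00 ± 0.51, with every rpb1-1 array below WT1B and every rpb2-10 array above WT1A, and its probes are shared. HUG1 had a difference of −2.31 ± 0.08 and moved the same ways on every array. Groups of 3 arrays are too small for a test of single outlying arrays. Their cause was not tested, and mutant, mating type and array set cannot be told apart.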

How the results depend on the processing

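Mutant, mating type and array set change together, and each mutation stands in 1 strain. Over the alternatives that keep every gene, the number of called differences ran between 2836 and 3741, the last with array weights, whose estimation stopped before its convergence tolerance was met, and the 860 genes with opposite effects ran between 732 without WT1A replicate 1 and 1170 with array weights. Leaving out WT1B replicate 3 and rpb1-1 replicate 2 together, a choice made after seeing the data, gave 844. Leaving out 1 array gave 2836 to 3162 calls. Of the 880 called differences of at least 1, between 873 and 880 were kept under each alternative that keeps every gene. Without the dimmest genes, which leaves fewer genes to test, 479 differences of at least 1 were called, with 321 for rpb1-1 and 173 for rpb2-10. Median centring gave 1412 positive and 1689 negative differences, and 364 positive and 522 negative of at least 1. The median difference of 11 of 42 lists turned sign under at least 1 of 25 alternatives. After median centring these were elongation factors (−0.0016), polymerase I and III subunits (−0.026), cyclins (−0.0085), pheromone response (−0.0045) and the DNA damage response with ribonucleotide reductase (−0.0085). Median and MAD scaling turned cyclins (−0.070), the DNA damage response (−0.038) and cytosolic ribosomal proteins (0.13), quantile normalization cyclins (−0.043), hexose transporters (0.019) and cytosolic ribosomal proteins (0.012), and leaving out WT1B replicate 3 polymerase I and III subunits (−0.033). Other turns of cytosolic ribosomal proteins reached at most 0.016. Histones turned without shared probes (−0.067), and, without the dimmest genes, the mating loci (0.51), the strain markers (−0.025), cyclins (−0.018), hexose transporters (0.58) and sulphur genes (−0.044), both of which filters leave fewer genes to test; for the scalings and the left-out array the cause was not tested. A replicate block shared by all groups gave 3145 calls and a block within each array set 3060, beside 3092 without. The correlations of same-numbered arrays ran between −0.31 and 0.32. The titles only number the biological replicates and do not say whether equal numbers mark arrays handled together. RPO21 passed the threshold with array weights (0.27, with adjusted p between 0.00988 and 0.232 over 25 alternatives) and without WT1B replicate 1, rpb1-1 replicate 3 or rpb2-10 replicate 3, and RPB8 missed it under 7 alternatives.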
